A study of Homo sapiens with 4 samples.

Results

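The human genome holds its HOX genes in 4 clusters, and open chromatin was described here across all of them: HOXA, HOXB, HOXC and HOXD. Peaks were taken as members where their midpoint lay in 1 of 4 hg19 windows: chr7:27125000-27255000 for HOXA, chr17:46600000-46815000 for HOXB, chr12:54325000-54455000 for HOXC and chr2:176935000-177060000 for HOXD. The windows span 600 kb and hold 38 HOX genes of the list read here, 10 in HOXA, 10 in HOXB, 9 in HOXC and 9 in HOXD. Peaks that shared at least 1 bp between libraries were joined into regions, and 73 of the 78788 regions of the series lay in the windows. HOXA held 22 of them, HOXB 29, HOXC 12 and HOXD 10.

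Chromatin accessibility was measured by ATAC-seq. The assay uses a transposase that inserts sequencing adapters where DNA is open. All 4 libraries came from 50000 wild-type cells of HCT116, a human colorectal cancer line. In the treated group, 2 libraries followed 6 h in 0.5 µg/ml tunicamycin, which blocks N-linked glycosylation and loads the endoplasmic reticulum with unfolded protein. In the vehicle group, 2 libraries followed 6 h in 0.1% DMSO. The labels call the libraries biological replicates, and both groups are of this 1 line.

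HOX genes encode homeodomain transcription factors that give cells along the body axis their position. Each cluster lines up its paralog groups in the order in which they act along that axis, so that low-numbered genes such as HOXA2, HOXB1 and HOXD1 sit at the front end and HOXA13, HOXB13, HOXC13 and HOXD13 at the back end. In the colon, as in other adult tissues, HOX expression keeps a record of position, and the clusters can be held closed by Polycomb proteins or opened in stretches. In hg19 the front end has the low coordinates in HOXA and HOXB and the high coordinates in HOXC and HOXD. The gene order was read from RefSeq. Because the coordinates of that annotation are of another build (GRCh38.p14), no region was given to a single gene, and regions are named by cluster and hg19 position.

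The windows were dense in open chromatin. HOXA held 10.8 and 11.5 peaks per 100 kb in DMSO replicates 1 and 2, and 12.3 and 16.2 in tunicamycin replicates 1 and 2. Stretches of the same length on either side of it held between 1.15 and 1.92. HOXA was thus the most crowded of the 4 windows in every library, with a mean of 12.7 ± 2.39 (SD, n = 4 libraries) against 1.63 ± 0.37 beside it. HOXC held 7.88 ± 0.38 peaks per 100 kb against 2.50 ± 0.38 beside it, and HOXD 6.40 ± 0.65 against 2.3 ± 0.20. HOXB held 9.77 ± 2.05 per 100 kb, but its neighbourhood on chromosome 17 was also rich in peaks, at 6.74 ± 0.50. Each window exceeded its flanks in all 4 libraries; the two-sided exact sign-flip permutation test gave p = 0.125 for each, the smallest value that 4 libraries allow. Over the genome, the lists held between 1.94 and 2.14 peaks per 100 kb.

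**Figure D1:**
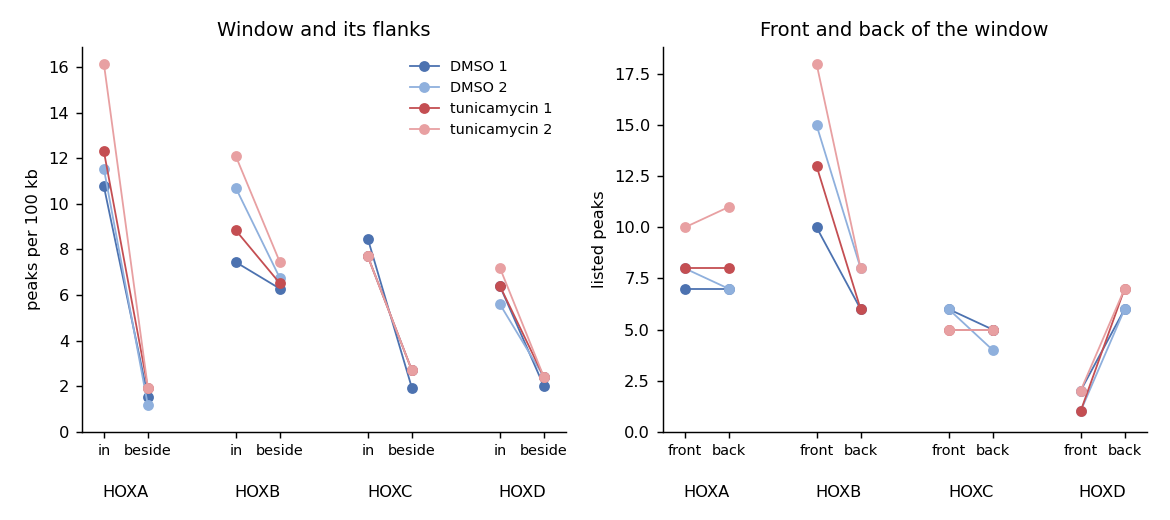
Left, listed peaks per 100 kb in each HOX window and in the stretches of equal length beside it; right, listed peaks in the front and back of each window. Each point is a library, lines join the values of 1 library, and points with equal values lie on top of each other. HOXA stands highest above its flanks (12.7 against 1.63 per 100 kb on average) and HOXB least (9.77 against 6.74), while HOXB has more peaks in front and HOXD more at the back in every library.

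Counting only regions that all 4 libraries listed, which are the calls that repeat, changed the picture for HOXB. Such regions numbered 40 of 73 in the windows (54.8%), beside 51.3% over all regions of the series. HOXA and HOXB held 12 each, of 22 and 29 regions. HOXC held 9 of 12 and HOXD 7 of 10. Per 100 kb this came to 9.23 in HOXA, 6.92 in HOXC, 5.60 in HOXD and 5.58 in HOXB, and to 1.38 over the genome. The stretch before the front of HOXB held 6.51 such regions per 100 kb and the one beyond its back 4.65, so the HOXB window lay between its own flanks. For HOXA the flanks held 0.77 and 1.54, for HOXC 1.54 on either side, and for HOXD 1.6 and 0.80. These densities are pooled over the libraries and have no replicate error.

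Within the windows the regions were unevenly placed. In HOXA, 8 of the 21 gaps between neighbouring regions were shorter than 1 kb, and in HOXB 11 of 28, against 2 of 11 in HOXC and 2 of 9 in HOXD. The longest gap lay in HOXB, where no library listed a peak over 45.8 kb between chr17:46756101 and chr17:46801948, toward the end that holds HOXB13. Whether any HOX gene lies inside this gap was not read, as the gene coordinates are of another build. HOXD had no listed peak in any library over the first 54.3 kb from the front edge of its window, the side of HOXD1. Past that empty stretch, and behind a weaker region listed in only 2 libraries, chr2:177005254-177005485 was listed in all 4 with 24, 18, 22 and 27 reads at the summit. Those reads are the height of the peak at its highest point, recovered as a whole number from the deposited fold and p-value and given here, as in all that follows, in the order DMSO replicates 1 and 2 and tunicamycin replicates 1 and 2.

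**Figure D2:**
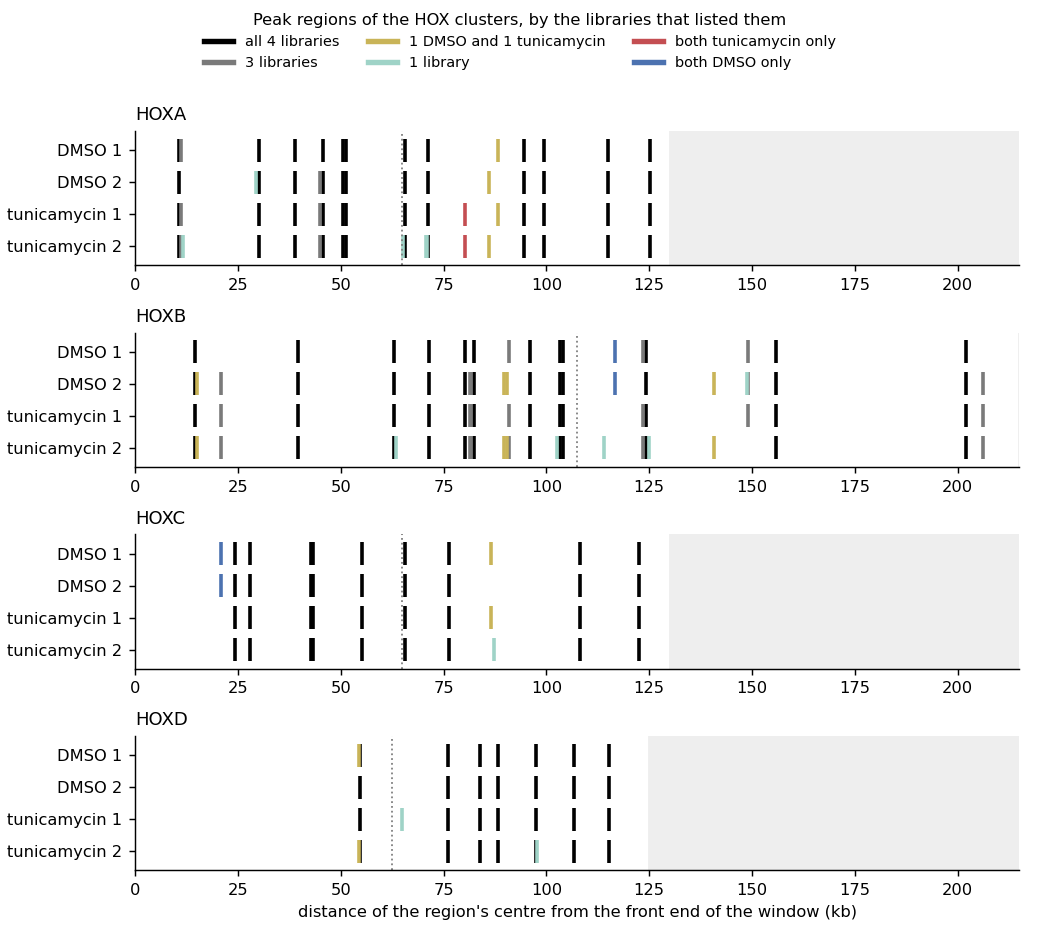
Position of every HOX region in each library, as distance in kb from the front end of its window, coloured by the set of libraries that listed it; a dotted line marks the middle of the window and grey covers what lies beyond it. Black marks, the 40 regions listed in all 4 libraries, recur at the same positions, HOXD is empty over its first 54.3 kb, and HOXB has a gap of 45.8 kb near its back end.

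The front and back of the clusters, divided at the middle of each window, differed in HOXB and HOXD in opposite ways. These parts are of equal length, but the HOX genes in each were not counted, for want of an hg19 annotation. Whether the differences follow the number of genes in each part was not tested. HOXB listed 10, 15, 13 and 18 peaks in its front part and 6, 8, 6 and 8 in its back part. The front was thus richer in every library, by 7.0 ± 2.45 peaks (SD, n = 4; exact sign-flip permutation p = 0.125, adjusted over the 4 clusters 0.25). HOXD listed 2, 1, 1 and 2 peaks in front and 6, 6, 7 and 7 at the back. Its back was richer in every library, the front less back difference being -5.0 ± 0.82 (exact permutation p = 0.125, adjusted 0.25). HOXA listed 7, 8, 8 and 10 peaks in front and 7, 7, 8 and 11 at the back, a mean difference of 0 ± 0.82. HOXC listed 6, 6, 5 and 5 in front and 5, 4, 5 and 5 at the back, a difference of 0.75 ± 0.96 (exact permutation p = 0.5, adjusted 0.667). No cluster can pass an adjusted threshold of 0.05 with 4 libraries.

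Each window was also divided into 3 stretches of equal length, whose HOX genes were again not counted. HOXB was fullest in its middle, with 11.8 ± 3.10 peaks against 5.5 ± 1.29 in front and 3.75 ± 0.96 at the back. HOXA was likewise fullest in its middle, with 7.5 ± 2.52 against 4.5 ± 1.00 in front and 4.5 ± 0.58 at the back. From front to back, HOXC held 4.5 ± 0.58, 3.5 ± 0.58 and 2.25 ± 0.5 peaks, and HOXD, in the opposite order, 0, 2.75 ± 0.5 and 5.25 ± 0.5. Summed over the clusters, the difference turned with the division: front exceeded back by 2.75 ± 2.06 peaks when windows were divided at the middle, and fell short of it by a mean difference of -1.25 when the outer stretches of 3 were compared.

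Peaks in the 4 windows differed in height as well as in number. The strongest HOX region in the lists was chr17:46662697-46663012 in the front part of HOXB, with 61, 60, 65 and 62 reads at the summit. It stood at the 98.7th percentile of the q-value rank on average, and its summits lay within 14 bp of each other over the 4 libraries. Next came chr2:176944680-176944938 near the back end of HOXD, the side of HOXD13, at the 95.3rd percentile, and chr7:27239774-27240085 near the back end of HOXA, the side of HOXA13, at the 91.2nd. The latter had 37, 36, 35 and 48 reads, so that only tunicamycin replicate 2 stood apart. HOXC had no region at that level. Its strongest, chr12:54332190-54332560 near the back end that holds HOXC13, stood at the 80.7th percentile with 21, 26, 26 and 29 reads.

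Other regions in the upper part of the lists were spread along the clusters. In the front part of HOXB, chr17:46639619-46639780 had 24, 31, 25 and 31 reads and chr17:46614409-46614574 had 25, 28, 20 and 30. In HOXA, chr7:27135550-27135917 near the front end had 30, 26, 25 and 28 reads, and chr7:27170491-27170664 had 17, 28, 24 and 26. In all 4 the reads of the groups overlapped, and in the last DMSO replicate 1 was lowest. In rank, the HOXA region near the front end did not overlap: it stood at the 88.1st and 79.4th percentile with DMSO and at the 78.2nd and 77.6th with tunicamycin. In HOXC, chr12:54399801-54400043 had 20, 23, 22 and 20 reads and chr12:54346747-54347115 had 20, 15, 16 and 19. In HOXD, chr2:176962379-176962628 had 17, 25, 24 and 24 reads and chr2:176953136-176953337 had 17, 23, 22 and 19. In all 4 of these the groups overlapped in reads and in rank.

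Taken over the 40 regions listed in all libraries, the HOX clusters did not stand high. Their median percentile was 55.2, beside 62.5 over all 40447 such regions of the series. The cluster medians were 53.0 in HOXA, 68.0 in HOXB, 51.4 in HOXC and 72.3 in HOXD. Median height was 20.4 reads, beside 19.5 over the series, and median width 197 bp, beside 183 bp. Local background, the reads the caller's model put at a summit without a peak, was higher in the HOX regions, with a median of 0.69 reads beside 0.56. It differed by cluster, from 0.42 in HOXD through 0.71 in HOXC and 0.74 in HOXA to 1.10 in HOXB. Regions of like height could thus differ in rank. The region chr17:46680027-46680158 in HOXB with 21, 23, 22 and 26 reads stood at the 53.3rd percentile, and chr2:177005254-177005485 in HOXD, of like height, at the 72.3rd.

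**Figure D3:**
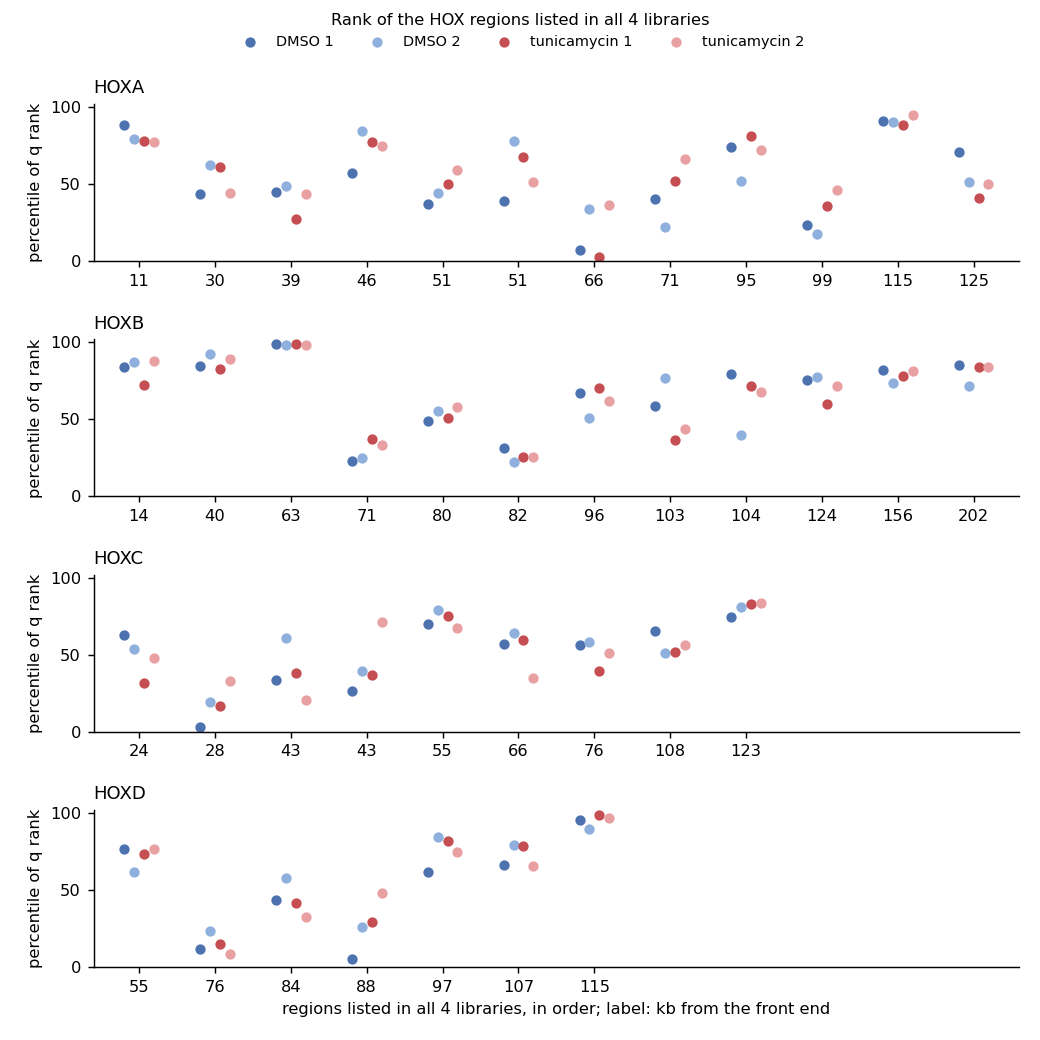
Percentile of the q-value rank in its own list for each of the 40 HOX regions listed in all 4 libraries, ordered from the front end; each point is a library and the label below is the distance from the front end in kb. The region at 63 kb in HOXB stands at 98.7 on average with all 4 points together, while for most regions the points of the groups are intermixed.

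Regions of HOXC and HOXD were also wider than those of HOXA and HOXB. Median width of the listed peaks ran from 212 to 220 bp over the 4 libraries in HOXC and from 183.5 to 222.5 bp in HOXD. In HOXD it was 222.5 and 217 bp with DMSO and 183.5 and 198 bp with tunicamycin, without overlap (exact permutation p = 0.333). In HOXA it ran from 151 to 167 bp and in HOXB from 131 to 156.5 bp, beside 159 to 161 bp over whole lists. The widest HOX region, chr17:46723840-46724397 in HOXB, spanned 558 bp, and its summits lay up to 289 bp apart between libraries. It had 29, 30, 24 and 31 reads.

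The number of HOX peaks overlapped between tunicamycin and DMSO. The windows held 49 and 55 listed peaks in DMSO replicates 1 and 2, and 53 and 66 in tunicamycin replicates 1 and 2. The groups overlapped, and tunicamycin replicate 2, which also had the longest list of the series (62526 peaks against 56566 to 58467), stood highest. The means were 52.0 ± 4.24 and 59.5 ± 9.19 (SD, n = 2 libraries each), a difference of 7.5 peaks (two-sided exact permutation p = 0.667; the smallest value that 2 against 2 libraries allow is 0.333). The difference was 1.0 without tunicamycin replicate 2 and 14 without tunicamycin replicate 1. With every list cut to the length of the shortest, it was -0.5. Bases covered by HOX peaks were 9700, 10330, 10291 and 11835, again with overlapping groups, a difference of 1048 bp (exact permutation p = 0.667). That difference was 276 bp without tunicamycin replicate 2, 1820 bp without tunicamycin replicate 1, and -88.5 bp with lists of equal length. Medians over the listed HOX peaks of each library did separate the groups. Median width was 194 and 170 bp with DMSO and 166 and 156.5 bp with tunicamycin. Median percentile of the q-value rank was 55.3 and 51.8 against 50.6 and 43.9 (exact permutation p = 0.333 for each). The peaks behind these medians differ between libraries.

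By cluster, HOXA listed 14 and 15 peaks with DMSO and 16 and 21 with tunicamycin, so its groups did not overlap (exact permutation p = 0.333). Whole lists did not overlap either, with 56581 and 56566 peaks against 58467 and 62526 (exact permutation p = 0.333). Lists of equal length were compared over the 4 windows together and not by cluster. HOXB listed 16 and 23 with DMSO and 19 and 26 with tunicamycin, with replicate 1 of either group below replicate 2. Median local background at those HOXB peaks was 1.03 and 0.753 reads with DMSO and 1.19 and 1.51 with tunicamycin. These groups did not overlap (exact permutation p = 0.333), but the peaks behind the medians differ between libraries. At single HOXB regions listed in all 4 libraries, background went in unlike directions. At most of them the groups overlapped, as at chr17:46801948-46802089, with 0.725 and 0.753 against 0.738 and 0.908 reads. Background was higher with tunicamycin at chr17:46696004-46696228 (0.714 and 0.864 against 0.868 and 0.941). The same held at chr17:46682265-46682423 (1.523 and 1.537 against 1.556 and 1.685) and chr17:46723840-46724397 (1.33 and 1.31 against 1.35 and 1.55). Background was lower without overlap only at chr17:46671329-46671553 (0.494 and 0.461 against 0.402 and 0.43). The part of background in the listing of peaks was not tested. HOXC listed 11 and 10 with DMSO and 10 and 10 with tunicamycin, and HOXD 8 and 7 against 8 and 9. Covered bases moved in unlike directions: in HOXA they were 2679 and 2721 with DMSO and 2790 and 3641 with tunicamycin, and in HOXC 2316 and 2250 against 2184 and 2155. Neither pair of groups overlapped, and both comparisons had the smallest possible exact permutation p, 0.333. Bases covered by whole lists did not overlap either, at 10444016 and 10495260 with DMSO and 10719488 and 11608034 with tunicamycin.

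Regions listed by both libraries of 1 group and by neither of the other were looked at first. The only region that both tunicamycin libraries listed and no DMSO library did was chr7:27205071-27205225 in the back part of HOXA, 1 of 73 (1.37%), beside 3.65% over all regions. It was weak: its summits had 9 and 14 reads over a background of 1.69 and 2.10, and it stood at the 0.69th and 9.20th percentile of its lists. Regions listed in both DMSO libraries and in neither tunicamycin library numbered 2 of 73 (2.74%), beside 1.86% over all regions. These were chr17:46716716-46716862 in HOXB, with 15 and 10 reads, and chr12:54434018-54434148 in the front part of HOXC, with 11 and 15 reads. With 1 library left out, a region of either kind needs 1 list fewer to agree, so a rise is built into the definition. The first count and the share over all regions both rose. Leaving out DMSO replicate 1 gave 4 regions of the first kind (5.48%, beside 7.91% over all regions), and leaving out DMSO replicate 2 gave 6 (8.45%, beside 7.88%). Leaving out tunicamycin replicate 1 gave 11 (15.3%, beside 11.99%), and leaving out tunicamycin replicate 2 gave 2 (3.17%, beside 9.76%). Of the second kind, leaving out DMSO replicate 1 gave 4 (5.48%, beside 6.88%).

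More of the HOX regions divided the libraries by other patterns. A peak only in tunicamycin replicate 2 was found for 10 of 73 regions (13.7%), beside 7.67% over all regions. No HOX region was listed in DMSO replicate 1 alone, beside 4.60% over all regions. Replicate 2 of both groups, and neither replicate 1, listed 5 regions (6.85%, beside 2.39%), 4 of them in HOXB. The reverse, replicate 1 of both groups alone, held for 2 (2.74%, beside 1.66%). Regions listed everywhere but in DMSO replicate 1 numbered 5 (6.85%, beside 3.85%), 4 of them in HOXB. The tallest of these was chr17:46681641-46681770, with 25 reads in DMSO replicate 2 and 28 and 34 with tunicamycin. Beside it, chr17:46681331-46681488 had 12 reads in DMSO replicate 2 and 23 and 29 with tunicamycin. At the back end, chr17:46806017-46806208 had 19, 28 and 27 reads in the same order. In these 3 the tunicamycin libraries stood above DMSO replicate 2, as they did for chr7:27169934-27170126 in HOXA, with 9, 12 and 11 reads. The fifth, chr17:46620822-46621148 in HOXB, went the other way, with 10, 8 and 7 reads. With 1 DMSO value each they give no comparison of the groups.

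The regions that every library listed could be compared in rank. Ranks of the q-value among the 40447 regions listed in all 4 libraries were turned into normal scores, whose unit is 1 SD of all regions, and the groups were compared with limma over all of them. In the HOX clusters 0 of 40 regions passed an adjusted p of 0.05 in either direction, where 0.0346% of all regions passed as higher with tunicamycin and 0.0173% as lower. The smallest adjusted p of a HOX region was 0.595. At an unadjusted p of 0.05, limma had 1 of the 40 as higher and 1 as lower (2.5% each), beside 3.72% and 3.61% of all regions. Changes in the 40 ranged from -0.96 to 0.91 with standard errors of 0.25 to 0.59, and their median was -0.06, beside 0.00 over all regions. The 21 regions called anywhere in the series had changes of at least 1.47, and no HOX region changed by that much. Smaller changes were not called anywhere in the series with 2 libraries a group.

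**Figure D4:**
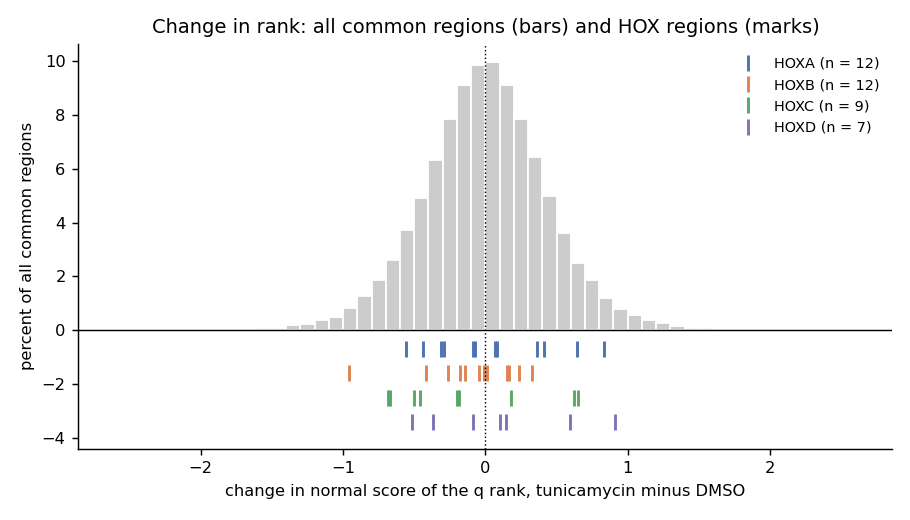
Change in the normal score of the q-value rank, tunicamycin less DMSO, for all 40447 regions listed in every library (grey bars, percent of regions in steps of 0.1) and for the 40 HOX regions (coloured marks, 1 row per cluster). The HOX marks run from -0.96 to 0.91, within the bulk of the bars, with 18 above 0 and 22 below.

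Counts of regions whose groups did not overlap in rank were close to those of the series. The ranks of both tunicamycin libraries were above those of both DMSO libraries in 7 of the 40 HOX regions (17.5%), beside 18.0% of all regions, and below them in 8 (20%), beside 18.3%. By cluster, the first count was 3 of 12 in HOXA, 1 of 12 in HOXB, 1 of 9 in HOXC and 2 of 7 in HOXD. The second was 3, 2, 2 and 1.

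In each cluster the region with the largest rise and the one with the largest fall were as follows. In HOXD, chr2:176971627-176971868 had 6, 10, 11 and 15 reads, both tunicamycin libraries above both DMSO libraries, and its score was 0.91 ± 0.53 higher with tunicamycin (SE; limma, adjusted p = 0.755). In HOXA, chr7:27196249-27196392 had 15, 12, 18 and 25 reads, again without overlap, and its score was 0.83 ± 0.44 higher (adjusted p = 0.712 by limma). The rise was smaller for chr12:54426981-54427342 in HOXC, with 7, 11, 10 and 14 reads, overlapping groups and a change of 0.65 ± 0.58. In HOXB the largest rise was 0.33 ± 0.50, for chr17:46671329-46671553 with 10, 10, 12 and 12 reads.

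The largest fall of all 40 regions was that of chr17:46703195-46703395 in HOXB. It had 23 and 30 reads with DMSO and 17 and 21 with tunicamycin, groups that did not overlap. Its score changed by -0.96 ± 0.41 (SE; limma, adjusted p = 0.595, the smallest of the 40), and its summits lay within 10 bp in the 4 libraries. Next to it toward the back, chr17:46703881-46704253 had 31, 18, 27 and 29 reads and a change of 0.23 ± 0.38, with overlapping groups. In HOXC, chr12:54412068-54412238 had 14, 21, 16 and 14 reads and a change of -0.68 ± 0.48, while the neighbouring chr12:54411697-54411929 had 13, 16, 16 and 29 reads and a change of 0.62 ± 0.45. In both pairs the neighbours thus had changes of opposite sign, none of which passed the test, and the difference between neighbours was not tested. The largest falls in HOXA and HOXD were -0.56 ± 0.41, for chr7:27250004-27250175 with 18, 14, 11 and 14 reads, and -0.52 ± 0.44, for chr2:176976063-176976254 with 12, 16, 13 and 12 reads.

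The HOXD region next to the back end, chr2:176944680-176944938, was the only one of the 40 higher with tunicamycin at an unadjusted p of 0.05. It had 38 and 31 reads with DMSO and 51 and 48 with tunicamycin, and stood at the 95.7th and 89.6th against the 98.8th and 97.1st percentile. Both tunicamycin libraries were above both DMSO libraries. Its score was 0.59 ± 0.27 higher, with an adjusted p of 0.627 by limma. By contrast the strongest region of HOXB, of 61, 60, 65 and 62 reads, had a change of -0.04 ± 0.25 and mixed ranks.

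Sequences of HOX promoters were read from the RefSeq table (GRCh38.p14), which covers 250 bases before to 50 after each gene's start. Of the 38 genes 20 matched, with 27 promoters. Genes without a match were HOXA5, HOXB2 to HOXB9, HOXB13, HOXC6, HOXC8 to HOXC13 and HOXD9, so what follows describes mainly HOXA and HOXD. The HOX promoters had a median GC content of 58.0%, beside 58.7% over all 35116 promoters, but more CG pairs for that content: the ratio of observed to expected CG was 0.85 beside 0.58.

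Promoters were searched on both strands for 8 motifs, chosen with the shares in view. A gene was counted where any of its promoters held the motif. By gene, the HOX set differed most from genes at large, in percentage points, for a pair of motifs. CCAAT, the CCAAT box, occurred in 17 of the 20 genes (85%), beside 39.7% of 27305 genes. CACGTG, the E-box that MYC and USF proteins can bind, occurred in 9 of 20 (45%), beside 8.77%. By promoter, CCAAT occurred in 18 of 27, beside 34.6% of 35116 promoters, and CACGTG in 9 of 27, beside 7.26%. Shares of genes with the others were nearer to the background: CCACG in 60% beside 42.1%, GGGCGG in 50% beside 48.3% and TATAAA in 20% beside 14.0%. TGATTNAT occurred in 10% beside 3.47%, TGATGNAA in 5% beside 4.46%, and TGACGTGG in 1 gene, HOXA11 (5%, beside 0.93%). CCACG overlaps CACGTG where a C precedes it, and is contained in TGACGTGG read on the other strand. The stretches below show CACGTG in capitals with 12 bases on either side, on the strand of the gene and at GRCh38.p14 positions, because genes of low and high paralog number, such as HOXD1 and HOXD13, shared this word.
HOXA3 (chr7:27118391-27118420, minus strand): ttgacgtatgacCACGTGagcacataatac
HOXA4 (chr7:27130940-27130969, minus strand): gtgggggcgctgCACGTGgggcacggggcg
HOXA7 (chr7:27156663-27156692, minus strand): catgtgggcggtCACGTGctgcggcgagct
HOXA9 (chr7:27165591-27165620, minus strand): ctgctggacgggCACGTGacgcgcacggcc
HOXD1 (chr2:176188603-176188632, plus strand): gccggccagcgcCACGTGgccgcccccgcc
HOXD3 (chr2:176157248-176157277, plus strand): acaagtcccgacCACGTGattggcgaaata
HOXD10 (chr2:176116660-176116689, plus strand): caggctctggagCACGTGacccgagaggag
HOXD11 (chr2:176107178-176107207, plus strand): tcttcatggcgtCACGTGacataattacca
HOXD13 (chr2:176092578-176092607, plus strand): cgttcctaccccCACGTGgccgcgcgcagc

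Between the word and the start lay 41 bases in HOXD3, 45 in HOXA3, 47 in HOXD1, 65 in HOXA9, 84 in HOXD11, 100 in HOXD10, 125 in HOXD13 and 194 in HOXA4, and in HOXA7 the word covered the start itself. These are matches of letters in a reference sequence, not measured sites, and the peaks of these lists could not be placed on them.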

How the data were processed

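ATAC-seq peak lists of 4 HCT116 libraries were read. The submitters' processing notes name hg19, the peak caller MACS2 2.2.7.1, the aligner Bowtie2 2.3.5.1, and Picard 2.18.23, SAMtools, Trim Galore and deepTools. Their settings were not given in the sources used here. For each library the authors deposited 1 list with, per peak, a score (10 times the −log10 q-value, rounded down), a ratio (fold of summit pileup over local background, each plus 1), a −log10 p-value and a −log10 q-value, and the summit position. These are the authors' own values, used only within a list. Whole-number pileups and backgrounds (0.1 or more) were recovered from the deposited ratio and −log10 p, matching within 0.001 for 100% of peaks. What the caller piled up and the read totals are not known, so depth is known only as the length of a list (56566 to 62526 peaks).

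Peaks sharing at least 1 bp were joined into regions (Python 3.11.15, pandas 2.3.3, numpy 2.4.6). Counts per library were compared by exact permutation (scipy 1.17.1 and enumeration). Normal scores of q-value ranks over 40447 regions were fitted with limma 3.58.1 (R 4.3.3, spread following the mean score) with Benjamini-Hochberg adjustment over all of them. The scripts were tested on simulated data. Named regions were, per window, the 3 with the best mean percentile, the largest rise and fall among regions listed in all libraries, and all gained or lost regions; others were named after their values were seen. The windows, the genes and the motifs were chosen with earlier results of these data known. Replicate number was not used in the main fit. In rank, same-numbered deviations had a correlation of 0.01 over 40447 regions and 0.105 over the 40 HOX regions among them. That value covers only regions listed in all 4 libraries, so it does not show whether replicate number went with which peaks were listed. Gene lists and cell type markers that need an hg19 annotation were not analysed here, nor were region sequences.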

Additional observations from a re-analysis of the deposited data

How the results depend on the processing

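The number of HOX peaks and of bases they cover, tunicamycin less DMSO, changed sign with lists of equal length (-0.5 peaks and -88.5 bp), and kept its sign in the other alternatives run. Front less back over the 4 clusters was -1.25 peaks with the outer of 3 equal stretches. Regions gained with tunicamycin, 1 as reported (1.37%, beside 3.65% of all regions), numbered 0 with a −log10 q of at least 5 (beside 3.80%), 4 with at least 10 (7.69% beside 4.28%), 0 with lists of equal length (beside 2.82%), 2 with peaks at least 130 bp wide (3.45% beside 3.73%), 2 with a reciprocal overlap of 50% (2.63% beside 3.71%), and 2 to 11 with 1 library left out (3.17% to 15.3%, beside 7.88% to 11.99%). Lost regions, 2 as reported (2.74% beside 1.86%), numbered 1 with a −log10 q of at least 10 (1.92% beside 1.42%), 0 with peaks at least 130 bp wide (beside 2.0%), and 2 to 4 with 1 library left out (2.82% to 5.48%, beside 3.92% to 6.88%). With 1 library left out, a gained or lost region needs 1 list fewer to agree, so higher counts are built in. The cause of the other shifts was not tested. By limma 0 HOX regions changed in rank in every alternative run, with 1 to 5 at an unadjusted p of 0.05 and a smallest adjusted p of 0.274 to 0.858. With the replicate block this count was also 0, with 2 at an unadjusted p of 0.05. Over the whole series the same fits called 0 to 35 regions, 21 as reported and 35 with the replicate block. There were 2 libraries a group, and median summits in the windows were 17 or 18 reads; how far either limits the comparison was not tested.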
